A study of Mus musculus with 6 samples.

Results

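Mucins are large glycoproteins whose serine- and threonine-rich stretches carry dense O-linked sugars, and they form the barrier between the intestinal epithelium and the gut lumen. Muc2 is secreted by goblet cells and forms the mucus gel. Muc1, Muc3, Muc4, Muc13 and Muc20 are anchored in the cell membrane, where membrane mucins build the glycocalyx and can signal through their cytoplasmic tails. The 6 genes Muc1, Muc2, Muc3, Muc4, Muc13 and Muc20 are described here through every probe set whose only gene symbol in the platform annotation is one of them. This gave 10 probe sets of the 45101 on the array, with at least 1 for each of the 6 genes. The set was selected on the difference of Muc4 between deficient and control arrays, so the values of Muc4 are given as a description and without a test.

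Expression was measured on Affymetrix arrays in intestinal epithelial cell preparations from 6 mice, 1 array each. The 3 deficient mice carried floxed Pggt1b, the gene for a subunit of GGTase-I (an enzyme that attaches a lipid anchor to proteins), and were positive for VillincreERT2, a recombinase driven by the Villin promoter of epithelial cells and switched on by tamoxifen. The 3 control mice carried the same floxed gene and lacked the recombinase. All 6 were of a mixed background of 129/SV and C57BL/6, received 1 mg tamoxifen on each of 3 days and were sampled on day 6 after the treatment began. The effect of the recombinase and that of the deletion cannot be told apart here, and neither the age of the mice nor the stretch of gut is given in the sources used here. Transcripts of Pggt1b did not separate the groups: its most strongly read probe set had 9.75, 8.88 and 8.83 (log2) in the deficient arrays, against 9.30, 9.55 and 9.32 in the controls, so the directions below rest on the labels. It was not checked whether this probe set lies in the deleted exons.

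The promoters of Muc4, Muc13 and Muc2 are printed because both probe sets of Muc13 were higher on all deficient arrays, as was the leading probe set of Muc4, while Muc2 was not. Each runs from 250 bases before to 50 bases after an annotated start, 5′ to 3′ on the plus strand, in RefSeq's annotation of build GRCm38.p6. Capitals mark matches, on either strand, to letters bound by factor families known to act in intestinal epithelium: TTTAT for the CDX factors, AGATAA for the family of GATA factors, TTCNNNGAA for STAT factors, CAAAGTCCA for HNF4 and GTTAAT for HNF1. The letters TATAAA of the core promoter, named the TATA box below, were searched too. Their reverse strand holds TTTAT, so that each such match is also a TTTAT match.
Muc4, chr16:32735636-32735935: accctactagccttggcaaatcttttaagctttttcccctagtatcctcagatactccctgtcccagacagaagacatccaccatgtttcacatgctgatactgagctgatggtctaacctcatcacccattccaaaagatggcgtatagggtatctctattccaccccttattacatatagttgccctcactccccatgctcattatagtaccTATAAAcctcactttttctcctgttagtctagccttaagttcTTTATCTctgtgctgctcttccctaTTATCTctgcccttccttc
Muc13, first start, chr16:33793787-33794086: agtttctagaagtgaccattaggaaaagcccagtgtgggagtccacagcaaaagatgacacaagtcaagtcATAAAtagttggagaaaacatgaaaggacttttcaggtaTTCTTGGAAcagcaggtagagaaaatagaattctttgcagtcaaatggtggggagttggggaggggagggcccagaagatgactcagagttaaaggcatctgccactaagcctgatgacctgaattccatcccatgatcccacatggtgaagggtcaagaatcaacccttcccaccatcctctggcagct
Muc13, second start, chr16:33794239-33794538: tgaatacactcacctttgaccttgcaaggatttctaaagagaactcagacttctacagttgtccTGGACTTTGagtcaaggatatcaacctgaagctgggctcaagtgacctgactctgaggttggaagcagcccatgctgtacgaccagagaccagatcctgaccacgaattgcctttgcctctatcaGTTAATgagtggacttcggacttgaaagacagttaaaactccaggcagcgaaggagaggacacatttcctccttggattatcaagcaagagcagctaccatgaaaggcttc
Muc2, chr7:141690090-141690389: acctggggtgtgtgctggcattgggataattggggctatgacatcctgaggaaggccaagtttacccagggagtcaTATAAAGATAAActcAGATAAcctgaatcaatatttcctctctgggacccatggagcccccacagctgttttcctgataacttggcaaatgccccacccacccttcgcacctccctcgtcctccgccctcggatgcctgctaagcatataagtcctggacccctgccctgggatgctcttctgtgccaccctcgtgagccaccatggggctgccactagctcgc

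The Muc4 promoter held 1 TATA box match, which began 36 bases before the start, and 2 matches to AGATAA, both after the start. Of its 2 TTTAT matches, 1 lay in the TATA box and the other began 6 bases after the start. The Muc2 promoter also held 2 AGATAA matches and 1 TATA box match, but further upstream, from 174 to 159 bases before the start. It had 2 TTTAT matches too, 1 in the TATA box and the other beginning 167 bases before the start. Neither Muc13 promoter held a GATA or TATA box match. The first Muc13 promoter had 1 STAT match and 1 TTTAT match, and the second had 1 HNF4 and 1 HNF1 match. Of the 32851 promoters in the table, 40.0% held TTTAT, 13.6% the TATA box, 11.2% AGATAA, 8.30% the STAT letters, 7.10% GTTAAT and 0.475% CAAAGTCCA. These are matches of letters and not measured sites. The promoter table matched all 6 genes.

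Muc4, a membrane mucin that in rat and human cells binds the receptor ErbB2, was higher in every deficient array than in every control on the probe set that read it most strongly, 1438555_x_at. Its values were 9.94, 9.96 and 9.52 (log2) in the deficient arrays, against 7.48, 7.29 and 8.40 in the controls. The lowest deficient array lay 1.12 above the highest control, and control replicate 3 stood nearest to the deficient arrays. The group means were 9.81 ± 0.25 in deficient mice and 7.72 ± 0.59 in controls (SD, n = 3 each), a difference of 2.08 ± 0.32 (SE of the fit) on the log2 scale, or 4.24-fold. Leaving out any 1 array gave differences from 1.87 (without control replicate 2) to 2.42 (without control replicate 3). Probe sets whose names end in x_at can match several transcripts, so related sequences may contribute to this value.

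The other Muc4 probe sets did not read alike. Probe set 1427398_at had 5.33, 4.30 and 3.39 in the deficient arrays, against 2.14, 2.45 and 2.96 in the controls. Its groups also did not overlap, but 1 of the 6 values, that of deficient replicate 1, lay above 5, the log2 level used here to call a probe set readable. The deficient arrays spread widely on it, with a mean of 4.34 ± 0.97 in deficient mice and 2.52 ± 0.42 in controls (SD, n = 3 each). Without deficient replicate 1 the difference of 1.82 became 1.33. Probe set 1432119_at stayed between 2.74 and 2.79 in the deficient arrays and between 2.71 and 2.83 in the controls, near the low values at which unexpressed probe sets gather. Averaged over the 3 probe sets, the Muc4 difference was 1.30.

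**Figure D1:**
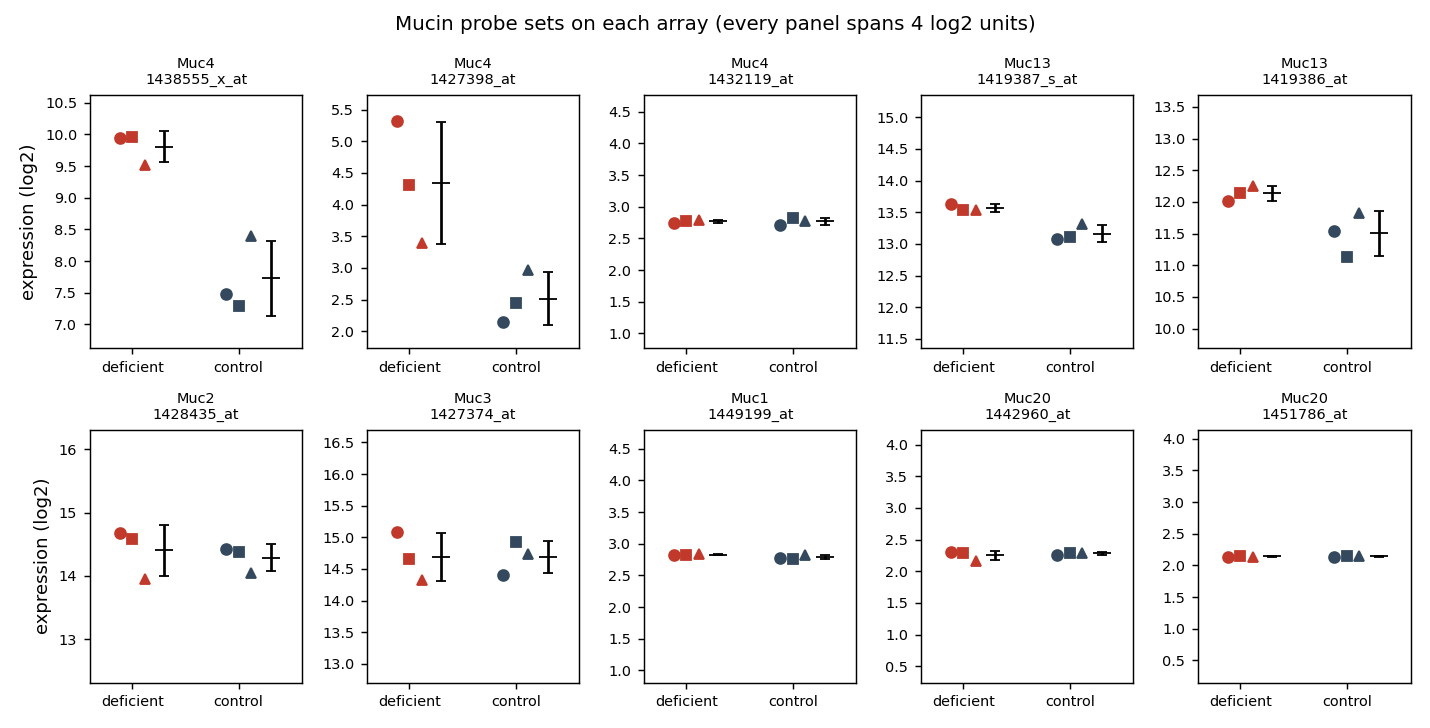
Log2 expression of the 10 mucin probe sets on each array, deficient (red) left of control (blue), circles, squares and triangles being replicates 1, 2 and 3, with the mean and SD over 3 arrays in black. Every panel spans 4 log2 units, so distances compare between panels; the groups are apart for Muc4 on 1438555_x_at and 1427398_at and for Muc13 on both probe sets, and overlap on the other 6.

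Muc13, a membrane mucin found along the apical surface of enterocytes and in goblet cells, was the other member whose groups did not overlap. Probe set 1419387_s_at had 13.64, 13.53 and 13.54 in the deficient arrays, against 13.07, 13.10 and 13.31 in the controls. Every deficient array lay above every control, by at least 0.22. The difference was 0.41 ± 0.15 (SE), or 1.33-fold with a 95% interval from 1.03-fold to 1.71-fold. It did not pass over all genes, with a limma adjusted p of 0.261 (unadjusted 0.0333). Probe set 1419386_at had 12.01, 12.14 and 12.25 in the deficient arrays, against 11.54, 11.13 and 11.83 in the controls, a difference of 0.63 with a limma adjusted p of 0.238 in a fit of every probe set. The same gene was thus higher on both of its probe sets in 3 of 3 deficient arrays, with neither past the threshold. Probe sets ending in s_at can also match several transcripts.

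Muc2, the gel-forming mucin, did not separate the groups. Its probe set had 14.68, 14.58 and 13.94 in the deficient arrays, against 14.43, 14.38 and 14.04 in the controls. Deficient replicate 3 was the lowest of the 6 arrays and deficient replicate 1 the highest. The difference of 0.12 ± 0.24 (SE) had a limma adjusted p of 0.828. The 95% interval of the fold ran from 0.73-fold to 1.62-fold. Muc3, a membrane mucin of the enterocyte brush border, had 15.08, 14.65 and 14.32 in the deficient arrays, against 14.41, 14.92 and 14.73 in the controls. The deficient arrays held both the highest and the lowest value. The difference of -0.0026 ± 0.24 (SE) had a limma adjusted p of 0.997. The 95% interval of the fold ran from 0.67-fold to 1.49-fold.

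Muc1, a membrane mucin of many glandular epithelia, and Muc20, a small membrane mucin reported in human cells to bind the receptor Met, were not read above 5 on any array. Muc1 had 2.82, 2.82 and 2.84 in the deficient arrays, against 2.77, 2.77 and 2.82 in the controls. The 2 probe sets of Muc20 lay between 2.14 and 2.31 in the deficient arrays and between 2.14 and 2.29 in the controls. Values this low do not show whether either gene changed, and they were not tested.

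Of the 6 genes, 4 were above 5 on at least 3 arrays and entered the fit of 8893 genes: Muc2, Muc3, Muc4 and Muc13. Of the 3 among them that were not chosen for their change, 0 passed a limma adjusted p of 0.05, while 2.09% of all genes passed. These were 10 genes (0.112%) higher and 176 genes (1.98%) lower in the deficient arrays. At an unadjusted p under 0.05 it was 1 of the 3, Muc13, against 16.9% of all genes (498 of the 8893 higher and 1006 lower). The groups did not overlap, with the deficient arrays above, in 9.00% of all genes, and of the 3 in Muc13 alone. The deficient arrays lay below all controls in 16.7% of all genes and in 0 of the 3.

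Over the 6 arrays Muc13 followed Muc4 with a Pearson r of 0.984, which ranked 7 among 8892 genes, while Muc2 and Muc3 had r of 0.18 and 0.08 with Muc4. The 5 genes most like Muc4 by the same measure were Lactb2, a mitochondrial ribonuclease, Ap3s1, a subunit of an adaptor complex for endosomal sorting, Exoc5, a subunit of the exocyst, Jade3, a chromatin scaffold protein, and Xiap, an inhibitor of caspases, with r between 0.986 and 0.993. All 5 were higher in each deficient array than in each control, by 0.31 to 0.75 on the log2 scale, with limma adjusted p from 0.133 to 0.331. These r are descriptions over 6 arrays in 2 groups, and any gene that splits the groups scores high. A second probe set of Lactb2 ran the other way, at -0.24, as did 1 of the 4 of Xiap, at -0.03.

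Muc4, Muc20 and Muc13 lie on the same chromosome, Muc4 and Muc20 next to each other on opposite strands. The protein-coding neighbours of assembly GRCm38.p6, from 5 genes before Muc4 to 5 after Muc13, were 25 genes with the mucins, of which 23 were on the array. Besides Muc4, 14 were tested and 0 passed limma (3 at an unadjusted p under 0.05), with adjusted p from 0.237 to 0.921 and differences from -0.55 to 0.70. The nearest genes on the array to either side of Muc4 and Muc20 were Tnk2 and Rubcn. Tnk2, a kinase, was at 0.60 and overlapped between groups. Rubcn, a regulator of autophagy, was not above 5 on at least 3 arrays. The deficient arrays lay above all controls in 4 of the 14 (Tfrc, Fyttd1, Slc12a8 and Muc13), against 9.00% of all genes, and below them in 0, against 16.7%.

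**Figure D2:**
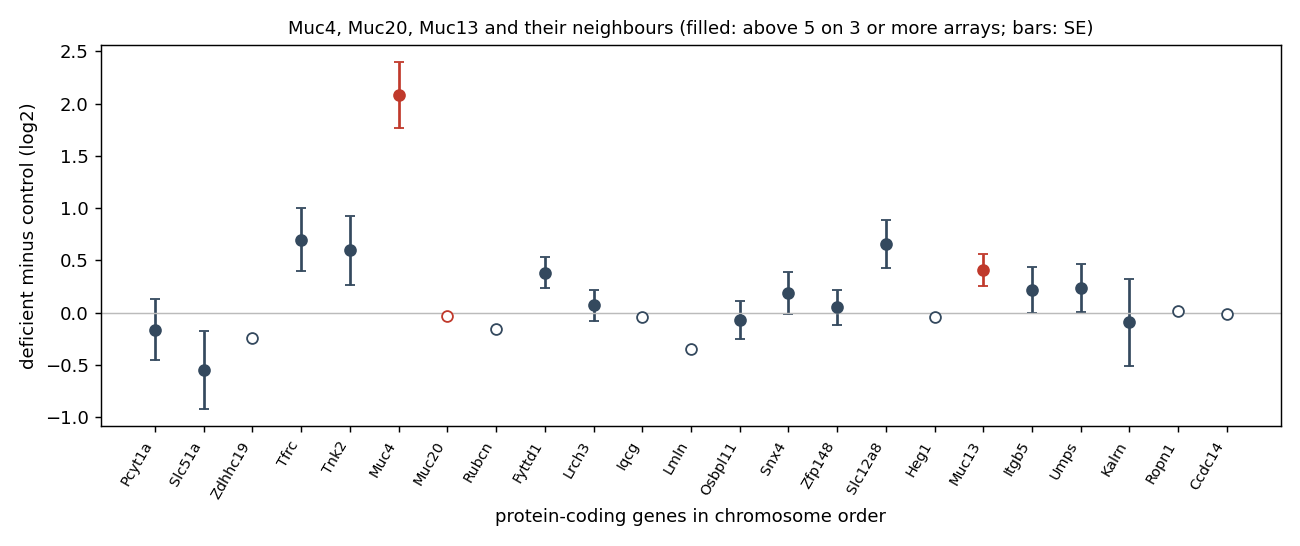
Difference between deficient and control means (log2, vertical axis) for the genes around Muc4, Muc20 and Muc13 in chromosome order, mucins in red and other genes in blue, with the SE of the fit; open circles were not above 5 on at least 3 arrays and have no SE. Muc4 stands at 2.08, and the other genes with filled circles lie between -0.55 and 0.70.

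Genes listed for building the O-linked sugars of mucins, most of them enzymes, were compared next. Of 33 listed genes, 31 were on the array and 25 were tested, and 0 passed limma over all genes. At an unadjusted p under 0.05, 4 were higher and 0 lower, against 498 and 1006 of all 8893 genes. By mean, 18 were higher and 7 lower, with a median difference of 0.16 against -0.04 over all genes tested. Galnt3, which adds the first sugar to serine and threonine, had 11.05, 10.24 and 9.86 in the deficient arrays, against 9.05, 8.84 and 8.88 in the controls. All deficient values were higher, and the difference of 1.46 ± 0.31 (SE) had a limma adjusted p of 0.0781. With the probe sets of Galnt3 averaged, the difference was 0.88 (limma adjusted p of 0.189). Chst4, a sulfotransferase that acts on mucin sugars, differed by 0.76 with a limma adjusted p of 0.122 and also had no overlap. In this list the deficient arrays lay above all controls in 4 of 25, against 9.00% of all genes, and below them in 1, against 16.7%.

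Among genes of goblet cells and mucus, the compartment of Muc2, 22 of 25 listed were tested. Limma called 0 higher and 1 lower, against 0.112% and 1.98% of all genes. At an unadjusted p under 0.05, 3 were higher and 1 lower, against 498 and 1006 of all 8893 genes. By mean 15 were higher and 7 lower, with a median difference of 0.26. The gene that fell was Gfi1, a transcription factor of secretory precursors and of lymphocytes. It had 5.45, 5.48 and 5.79 in the deficient arrays, against 6.96, 6.81 and 6.93 in the controls, a difference of -1.33 ± 0.17 (SE; limma adjusted p of 0.00984). Gfi1 missed the threshold without control replicate 1 (limma adjusted p of 0.0562), control replicate 3 (0.0637) or deficient replicate 2 (0.0564). Lymphocyte markers fell in the same arrays, as given below, and their part in this value was not tested. Agr2, a disulfide isomerase needed to fold Muc2, had 12.40, 12.99 and 12.56 in the deficient arrays, against 12.34, 11.39 and 11.79 in the controls, a difference of 0.81 that did not pass (limma adjusted p of 0.235). The deficient arrays lay above all controls in 6 of the 22, against 9.00% of all genes, and below them in 2, against 16.7%. The mucus proteins Tff3, Clca1 and Zg16 overlapped between groups, at -0.11, -0.07 and 0.0003, and a second probe set of Clca1 was at -1.03. In the same list Fcgbp lay below all controls, at -0.35, and Spink4 above them, at 0.49 (limma adjusted p of 0.396 and 0.305).

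Among the receptors, sheddases and other partners of mucins, 17 of 18 were tested and 0 passed limma (1 higher and 1 lower at an unadjusted p under 0.05), with 11 higher and 6 lower by mean and a median difference of 0.07. The deficient arrays lay above all controls in 4 of the 17, against 9.00% of all genes, and below them in 2, against 16.7%. Erbb2, the partner of Muc4 named above, had 9.41, 8.84 and 8.93 in the deficient arrays, against 9.31, 8.93 and 9.11 in the controls, so its groups overlapped (difference -0.06, limma adjusted p of 0.895). Erbb3, which pairs with ErbB2, differed by 0.07 and overlapped too. The lowest p in the list were those of Met, at 0.68, and of Nlrp6, an innate sensor involved in mucus secretion, at -0.57 (limma adjusted p of 0.185 and 0.192).

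Transcription factors and cytokine receptors listed as candidate regulators of mucin genes did not pass either. All 18 that were on the array, of 21 listed, were tested, with 0 past limma over all genes (1 higher and 1 lower at an unadjusted p under 0.05), 7 higher and 11 lower by mean and a median difference of -0.04. The deficient arrays lay above all controls in 2 of the 18, against 9.00% of all genes, and below them in 2, against 16.7%. Cdx2, the intestinal factor of the TTTAT letters, was at -0.02, and a second probe set of it was at 0.75. Hnf4a was at 0.36 (limma adjusted p of 0.327), with its other probe sets at 1.24 and 0.34. Gata6 was at -0.31 (limma adjusted p of 0.427), with its other probe sets at -0.58 and -0.10. The lowest p were those of Notch1, a receptor of cell fate choice also used by lymphocytes, at -1.19, and of Il13ra1, a receptor chain for interleukin-13, at 0.92 (limma adjusted p of 0.123 and 0.197). Other probe sets of Il13ra1 were at 1.70, 1.52 and 0.27. Of 10 other mucin and sialomucin genes listed, 8 were on the array and only the sialomucin Cd164 was tested, at 0.14 (limma adjusted p of 0.73). The gel-forming mucins Muc5ac and Muc5b of stomach and airway read below 2.3 on all arrays.

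**Figure D3:**
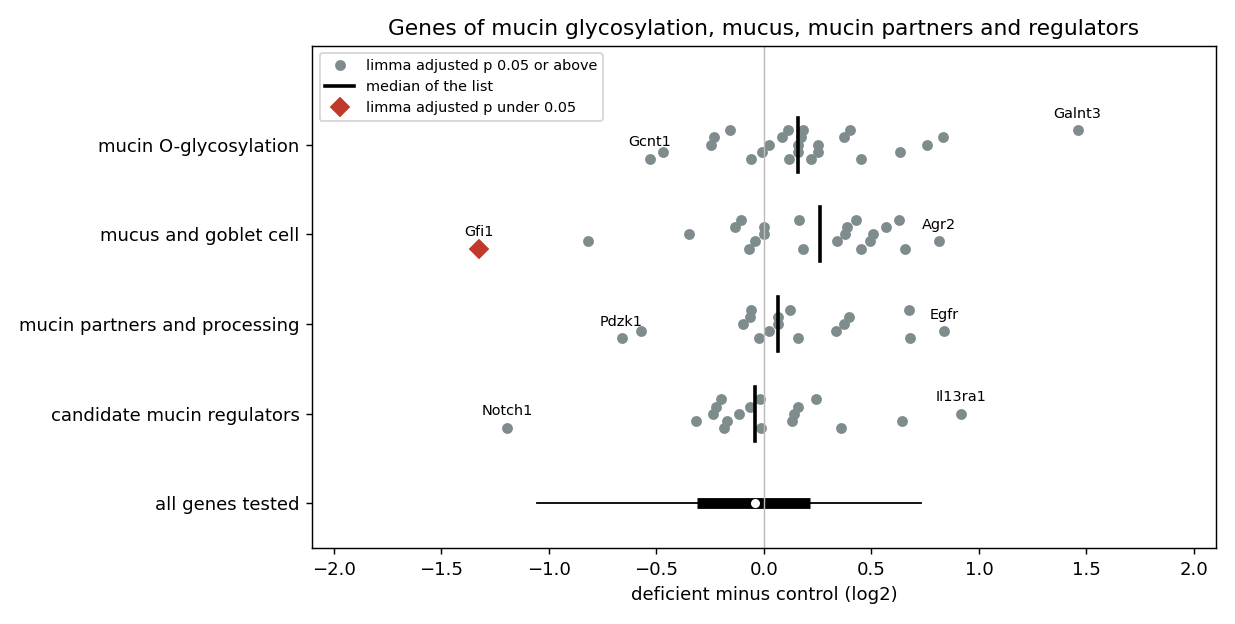
Differences between deficient and control means (log2, horizontal axis) of each tested gene in the 4 lists, with the list median as a black bar and the lowest and highest gene named; the bottom row gives the median, quartiles and 5th to 95th percentiles of all 8893 genes. Gfi1 is the 1 gene past the threshold (red diamond), and the medians of the lists lie between -0.04 and 0.26.

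Marker genes show what the preparations held. Enterocyte markers were read on every array and 0 of 16 passed limma (0 higher and 1 lower at an unadjusted p under 0.05), with a median difference of -0.16. Markers of colon (10 tested) and of small intestine (9 tested) were both read: Car1 of colon and Fabp6 of ileum were above 12 on every array. Hoxd10 of the colon list and Osr2 of the small intestine list were not above 5 on any array. The preparations may thus have held RNA of both stretches, which the labels do not settle. The colon list, relative to its control mean, stood at 1.10, -0.86 and -0.13 in deficient replicates 1, 2 and 3, against -0.07, -0.12 and 0.19 in controls 1, 2 and 3. The groups overlapped on this list, and its part in the mucin values was not tested. In the colon list 0 genes passed limma (also 0 at an unadjusted p under 0.05). In the small intestine list 6 genes were higher and 3 lower by mean, with a median difference of 0.16. Relative to its control mean, this list stood at 0.36, 0.44 and -0.09 in the deficient arrays, against 0.25, -0.54 and 0.29 in the controls. Of its 9 tested genes 1 passed limma, against 2.09% of all genes. This was Cubn, the receptor for vitamin B12 bound to intrinsic factor, which fell by 1.25 (limma adjusted p of 0.0237). Cubn passed without deficient replicate 2 and missed the threshold without any other array (limma adjusted p from 0.0627 to 0.115). It also missed it with no filter on low values (0.0807) and with the replicate block (0.0821).

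Among markers of T cells and of lymphocytes within the epithelium, limma called 11 of 13 tested genes lower, against 1.98% of all genes. All 13 were lower by mean and lay below all controls, against 16.7% of all genes. The median difference was -3.17. With no filter on low values 3 passed, and with the replicate block 7. Of the 13, 3 entered the fit through the control arrays alone, being at or under 5 on all deficient arrays. The list stood at -4.03, -3.28 and -2.55 relative to its control mean in the deficient arrays, against 0.09, -0.03 and -0.06 in the controls. The lymphocyte count was 4 or 6 without 1 of the controls (4 without replicate 1 or 3, 6 without replicate 2), 5 without deficient replicate 2 and 11 or 12 without another deficient array. In the myeloid list limma called 4 of 10 lower (2 without deficient replicate 2), against 1.98% of all genes. The 4 called were Fcer1g, Tyrobp, Adgre1 and Itgax. C1qa, Csf1r, Lyz2 and Cd14 overlapped between groups, at -0.88, -0.64, -0.41 and -0.31. The part of lymphocytes in the called genes was not tested. All 10 were lower by mean, with a median of -0.97, and 6 lay below all controls, against 16.7% of all genes. Of the 10, 1 (Itgax, among the called) entered the fit through the control arrays alone. In the stromal and endothelial list 0 of 5 passed limma (3 lower at an unadjusted p under 0.05, median -1.07). By mean 3 of the 5 were lower and 2 higher (Acta2 at 0.06 and Dcn at 0.13). Relative to its control mean, this list stood at -1.21, -0.94 and -0.43 in the deficient arrays, against 0.65, -0.39 and -0.26 in the controls. In such mixed preparations, fewer cells of a type and less RNA per cell cannot be told apart, and the part of these markers in the mucin values was not tested.

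Of 8 markers of the gastric surface, 3 were tested and 1 passed limma as higher, against 0.112% of all genes. This was Anxa10, an annexin. It read 12.60, 10.22 and 8.91 in the deficient arrays, against 2.29, 2.51 and 2.82 in the controls (limma adjusted p of 0.0046). Anxa10 entered the fit through the deficient arrays alone, and with no filter on low values it did not pass (0.0684). Its difference of 8.03 rests on control values under 5. It became 5.57 with values under 5 raised to 5, and 6.02 with its probe sets averaged. Tff1 and Ctse were higher in each deficient array than in each control without passing, at 1.91 and 1.66 (limma adjusted p of 0.164 and 0.282). The remaining 5, Gkn1, Gkn2, Muc5ac, Tff2 and Vsig1, among them the defining secreted mucin of the gastric surface, were not above 5 on any array. All 3 tested genes lay above all controls, against 9.00% of all genes. Relative to its control mean, the mean of the 3 stood at 5.40, 2.98 and 3.22 in the deficient arrays. The controls stood at -0.18, -0.20 and 0.38. Anxa10, at 8.03, had the largest difference of the 3 and weighs most in this mean. The part of this mean in the mucin values was not tested.

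**Figure D4:**
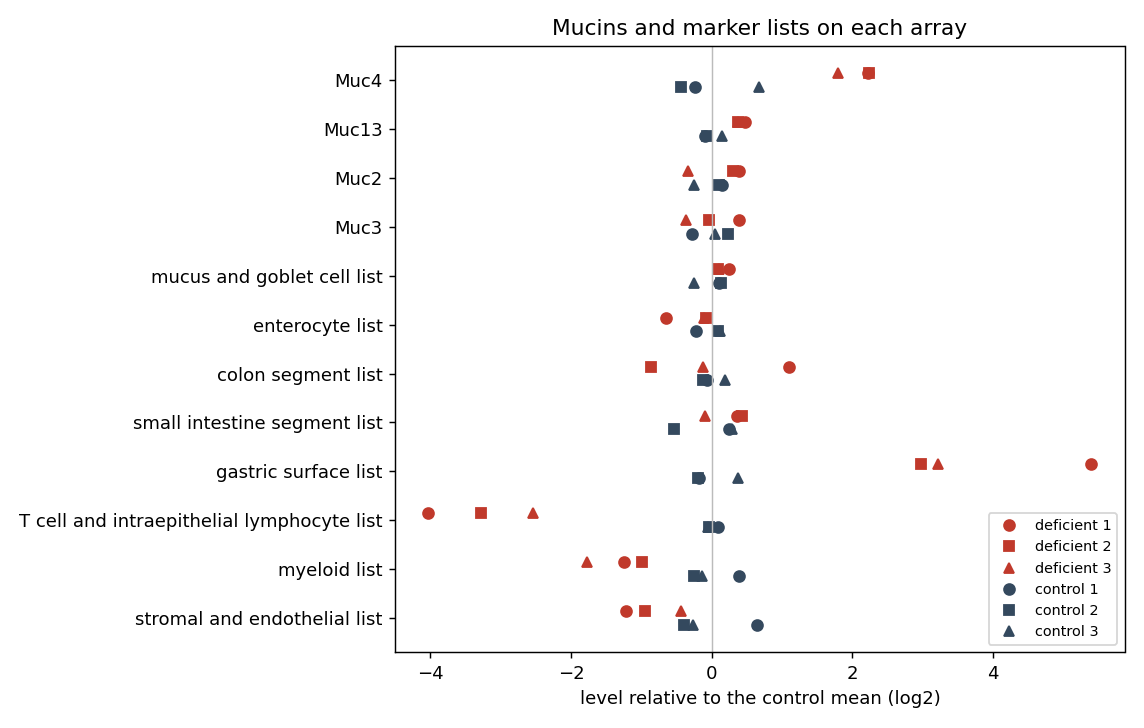
Level of Muc4, Muc13, Muc2, Muc3 and the mean of each marker list on each array, relative to the control mean (log2, horizontal axis), deficient arrays in red above controls in blue, with circles, squares and triangles for replicates 1, 2 and 3. Muc4, Muc13 and the mean of the 3 tested gastric surface genes, in which Anxa10 weighs most, are higher in all deficient arrays. The lymphocyte list, the myeloid list and the stromal and endothelial list are lower in every deficient array than in every control. For the stromal and endothelial list this is narrow (-0.43 in deficient replicate 3 against -0.39 in control replicate 2). Muc2, Muc3 and the colon list overlap.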

How the data were processed

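Total RNA of 6 mice was measured on Affymetrix arrays. The authors deposited 1 log2 expression value for each probe set on each array. Per the submitters' processing notes, Partek 6.5 and GCRMA were used, with the step of each not given. No header states the log2 scale, which was taken from the range (0.42 to 16.4, array medians 3.26 to 3.33). No scanner signals or saturation flags were used, and 3 arrays a group limit the precision.

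Control probe sets (64) were left out. Of the rest, 34945 had 1 symbol. Of a gene's probe sets the one of highest mean was used. Genes that exceeded 5 (log2) on 3 or more arrays entered limma 3.58.1 in R 4.3.3 (lmFit, eBayes, no covariate), with Benjamini-Hochberg adjustment over 8893 genes. All differences are deficient minus control. Intervals are 95% intervals of that fit. The procedure was tested on simulated data. The labels call the arrays biological replicates. They give no scan batch, so none was tested.

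The members, 5 pathway lists and 11 marker lists were chosen with earlier results of these data known. Named genes were all member probe sets, up to 4 called or the 2 lowest-p genes of each pathway list, called markers, Pggt1b and the 5 genes most correlated with Muc4. Others, such as Agr2, Erbb2, Cdx2 and the neighbours, were named with their values known. The alternatives varied filter, probe set rule, normalization, moderation, weights, floor and pairing, and left out each array.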

Additional observations from a re-analysis of the deposited data

How the results depend on the processing

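Over 16 alternatives Muc13 stayed higher (0.30 to 0.52, limma adjusted p from 0.189 to 0.456), Muc2 ran from -0.021 to 0.35 and Muc3 from -0.20 to 0.18, and none of the 3 passed under any of them. Muc4 was chosen for its rise and its groups did not overlap, so its sign could not turn when an array was left out. Its values here are a description. The 1 alternative that moved Muc4 by more than its replicate spread was the mean of all its probe sets (1.30), which includes the 2 with lower readings. Raising values under 5 to 5 set the Muc1 difference to 0 by construction. Leaving out 1 array gave 1.87 to 2.42 for Muc4, 0.36 to 0.48 for Muc13, 0.03 to 0.06 for Muc1 and -0.05 to 0.01 for Muc20. The sign of Muc2 turned without deficient replicate 1 (-0.021) or control replicate 3 (-0.0051), and that of Muc3 without deficient replicate 2 (0.014) or 3 (0.18) or control replicate 2 (0.11) or 3 (0.019).

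The count of called genes, 186 (10 higher, 176 lower), was 85 (0 higher by limma, with 638 higher at an unadjusted p under 0.05, and 85 lower) with no filter, where 18193 genes were tested. It was 117 (6 higher, 111 lower) with probe sets averaged and 293 (33 higher) with array weights, and the cause was not tested. With no filter the myeloid count of 4 became 1. Leaving out 1 array gave 93 to 239 in all, 3 to 36 higher and 88 to 203 lower. Galnt3 passed with array weights (limma adjusted p of 0.0289) and without deficient replicate 3 (0.0403), and in its other alternatives the p ran up to 0.239.

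Replicate numbers are shared by the groups, but deviations of same-numbered arrays from their group means correlated at 0.0485, -0.291 and 0.0021, so the numbers were not taken as pairs. With the replicate block 141 genes passed (9 higher, 132 lower), Muc13 had a limma adjusted p of 0.406, Muc2 0.807 and Muc3 0.998, and Gfi1 had 0.0542.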

Other observations

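Markers of other epithelial cell types were read in the same arrays. In the Paneth list 0 of 5 tested genes passed limma (0 at an unadjusted p under 0.05), with a median difference of 0.44. In the stem and transit-amplifying list 0 of 6 passed (1 higher at an unadjusted p under 0.05, median 0.75), and control replicate 2 stood lowest, at -1.13 relative to the control mean. In the enteroendocrine list 0 of 8 passed (0 at an unadjusted p under 0.05, median -0.48), with deficient replicate 1 lowest at -1.70. Of 6 tuft cell markers on the array 1 was tested, Alox5ap, which lymphoid and myeloid cells also express, at -1.95 (limma adjusted p of 0.292).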
